A study of Danio rerio with 3 samples.

Results

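Intestinal RNA of adult zebrafish (Danio rerio) given a feed with Cavendish banana was set against intestinal RNA of fish given commercial feed alone. The Cavendish diet was 50% fruit pulp of the Cavendish banana, the common dessert variety, and 50% Tetramin, a commercial flake feed. Control fish received Tetramin only. The labels name no strain, genotype or sex, and all fish were healthy adults of 6 to 9 months. Both groups ate 4% of their body weight a day for 8 weeks, were fasted for 24 hours and were sampled on day 56. Another diet of the series, with the pulp of the Fe'i banana at the same 50%, is used only in scaling the libraries and for its level beside leading genes. Each diet has 1 poly(A) library of paired 150-base reads, so 2 of the 3 libraries enter the comparison. How many fish made up a library, and which stretch of intestine was taken, the sources used here do not say, and diet, fish, dissection and library cannot be told apart.

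The genes compared were those with an accepted Cufflinks estimate and at least 1 FPKM in either library (mapped fragments corrected for transcript length and for library size). They number 13584, against 14061 at that level in any of the 3 libraries. The gene just inside this limit was ighv8-3, at 1.0003 deposited FPKM in the Cavendish library, and the gene just outside it was cemip, at 0.999981. Levels below are FPKM after scaling of the libraries to each other, and ± gives the half-width of the deposited 95% interval, which covers counting and read assignment within a library but not differences between fish. A ratio is log2((Cavendish + 1)/(control + 1)) of the scaled levels, so positive means higher with Cavendish, and the pseudocount of 1 understates the change of low genes. A gene was called higher or lower where this ratio was at least 1 in size and the 2 intervals did not overlap. The Cavendish library was the deeper, at an estimated 1.27 times the fragments of the control library, and 12944 and 12486 genes reached 1 FPKM in the Cavendish and control libraries. With 1 library a diet there is no replicate check and no p-value for any difference.

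The intestine absorbs and repacks food. Enterocytes digest sugars and peptides at their brush border, join absorbed fatty acids into triglyceride and send them out on lipoprotein particles through the endoplasmic reticulum and Golgi. They also make cholesterol, whose synthesis is set by the membrane-bound factor Srebf2: when sterol in the endoplasmic reticulum is low, Srebf2 is released and switches on the enzymes of the pathway and the receptor that takes up lipoprotein. Around the epithelium lie immune cells, vessels and smooth muscle. In zebrafish the pancreas is strewn along the gut and the liver touches it, so a dissected intestine can carry RNA of both.

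With Cavendish 796 genes passed as higher (5.86% of those measured) and 232 as lower (1.71%), together 7.57%. The median ratio of all measured genes was 0.02, and 91.3% of them lay within 2-fold. A further 159 genes passed 2-fold but had overlapping intervals. Genes called higher had a median level of 7.17 FPKM in the Cavendish and 1.91 in the control library, and genes called lower one of 4.89 FPKM in the Cavendish and 16.1 in the control library. The excess of higher calls was found at every level. Higher calls outnumbered lower ones by the largest factor below a mean of 2 FPKM, with 199 higher and 31 lower. The gap between the share called higher and the share called lower was widest among the 186 genes whose mean reached 1000 FPKM. There 27 genes (14.5%) were called higher and 7 (3.76%) lower. Between 5 and 10 FPKM these shares were 4.46% and 1.3%. The excess depended on the scaling: 77.4% of calls were higher here, against 53.4% (517 higher, 451 lower) with TPM, which moves the median ratio of all genes to -0.20. With the FPKM as deposited the share was 66.9% (median -0.09). List medians below are to be read against these values, and list counts against the 5.86% of all genes called higher and the 1.71% called lower. List counts given with TPM are to be read against the 517 higher and 451 lower of all 13584 genes instead, where lower calls are more common. A list with few calls can lie near these shares. Where a printed list median changed sign under another scaling, its value with TPM is given. Lists without a printed median may have changed sign too, since 54 of 77 list medians kept theirs.

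Both libraries carried the genes of an intestine. The intestinal fatty acid binding protein fabp2 was at 2287 ± 97 FPKM in the Cavendish library and 4946 ± 207 in the control library, the retinol-binding rbp2a at 6181 ± 52 (Cavendish) and 7457 ± 61 (control), and the intestinal transcription factor cdx1b at 15.5 ± 0.73 (Cavendish) and 23.2 ± 0.96 (control). The libraries differed in RNA of tissues around the epithelium. Exocrine pancreas genes together stood at 168296 FPKM in the Cavendish and 61101 in the control library, with 22 of 35 measured genes called higher, 0 called lower and a median ratio of 1.4. Liver genes summed to 17429 FPKM in the Cavendish and 8932 in the control library, and 13 of 48 were called higher, against 5 higher and 1 lower with TPM (medians 0.71 and 0.46). Smooth muscle genes summed to 1682 FPKM with Cavendish and 541 with control feed, with 20 of 30 called higher, and endothelial genes to 111 with Cavendish and 35.8 with control feed, with 10 of 19. Red cell genes summed to 579 FPKM with Cavendish and 299.9 with control feed, with 7 of 10. None of these 4 lists had a gene called lower at the scaling used here. No exocrine pancreas or endothelial gene was listed at 0 in either library, and 1 liver gene was, in the control library only. More cells of a type and more RNA per cell cannot be told apart in tissue RNA. How far these tissues account for the other differences was not tested. The genes of these lists, of islets, of matrix and of collagens were also left out of the count, a choice made after the values were seen. Of the 13384 genes left, 699 were called higher and 232 lower. None of the lists left out held a gene called lower, so the lower count could not change. Genes of these tissues that are in no such list stayed in the count.

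**Figure D1:**
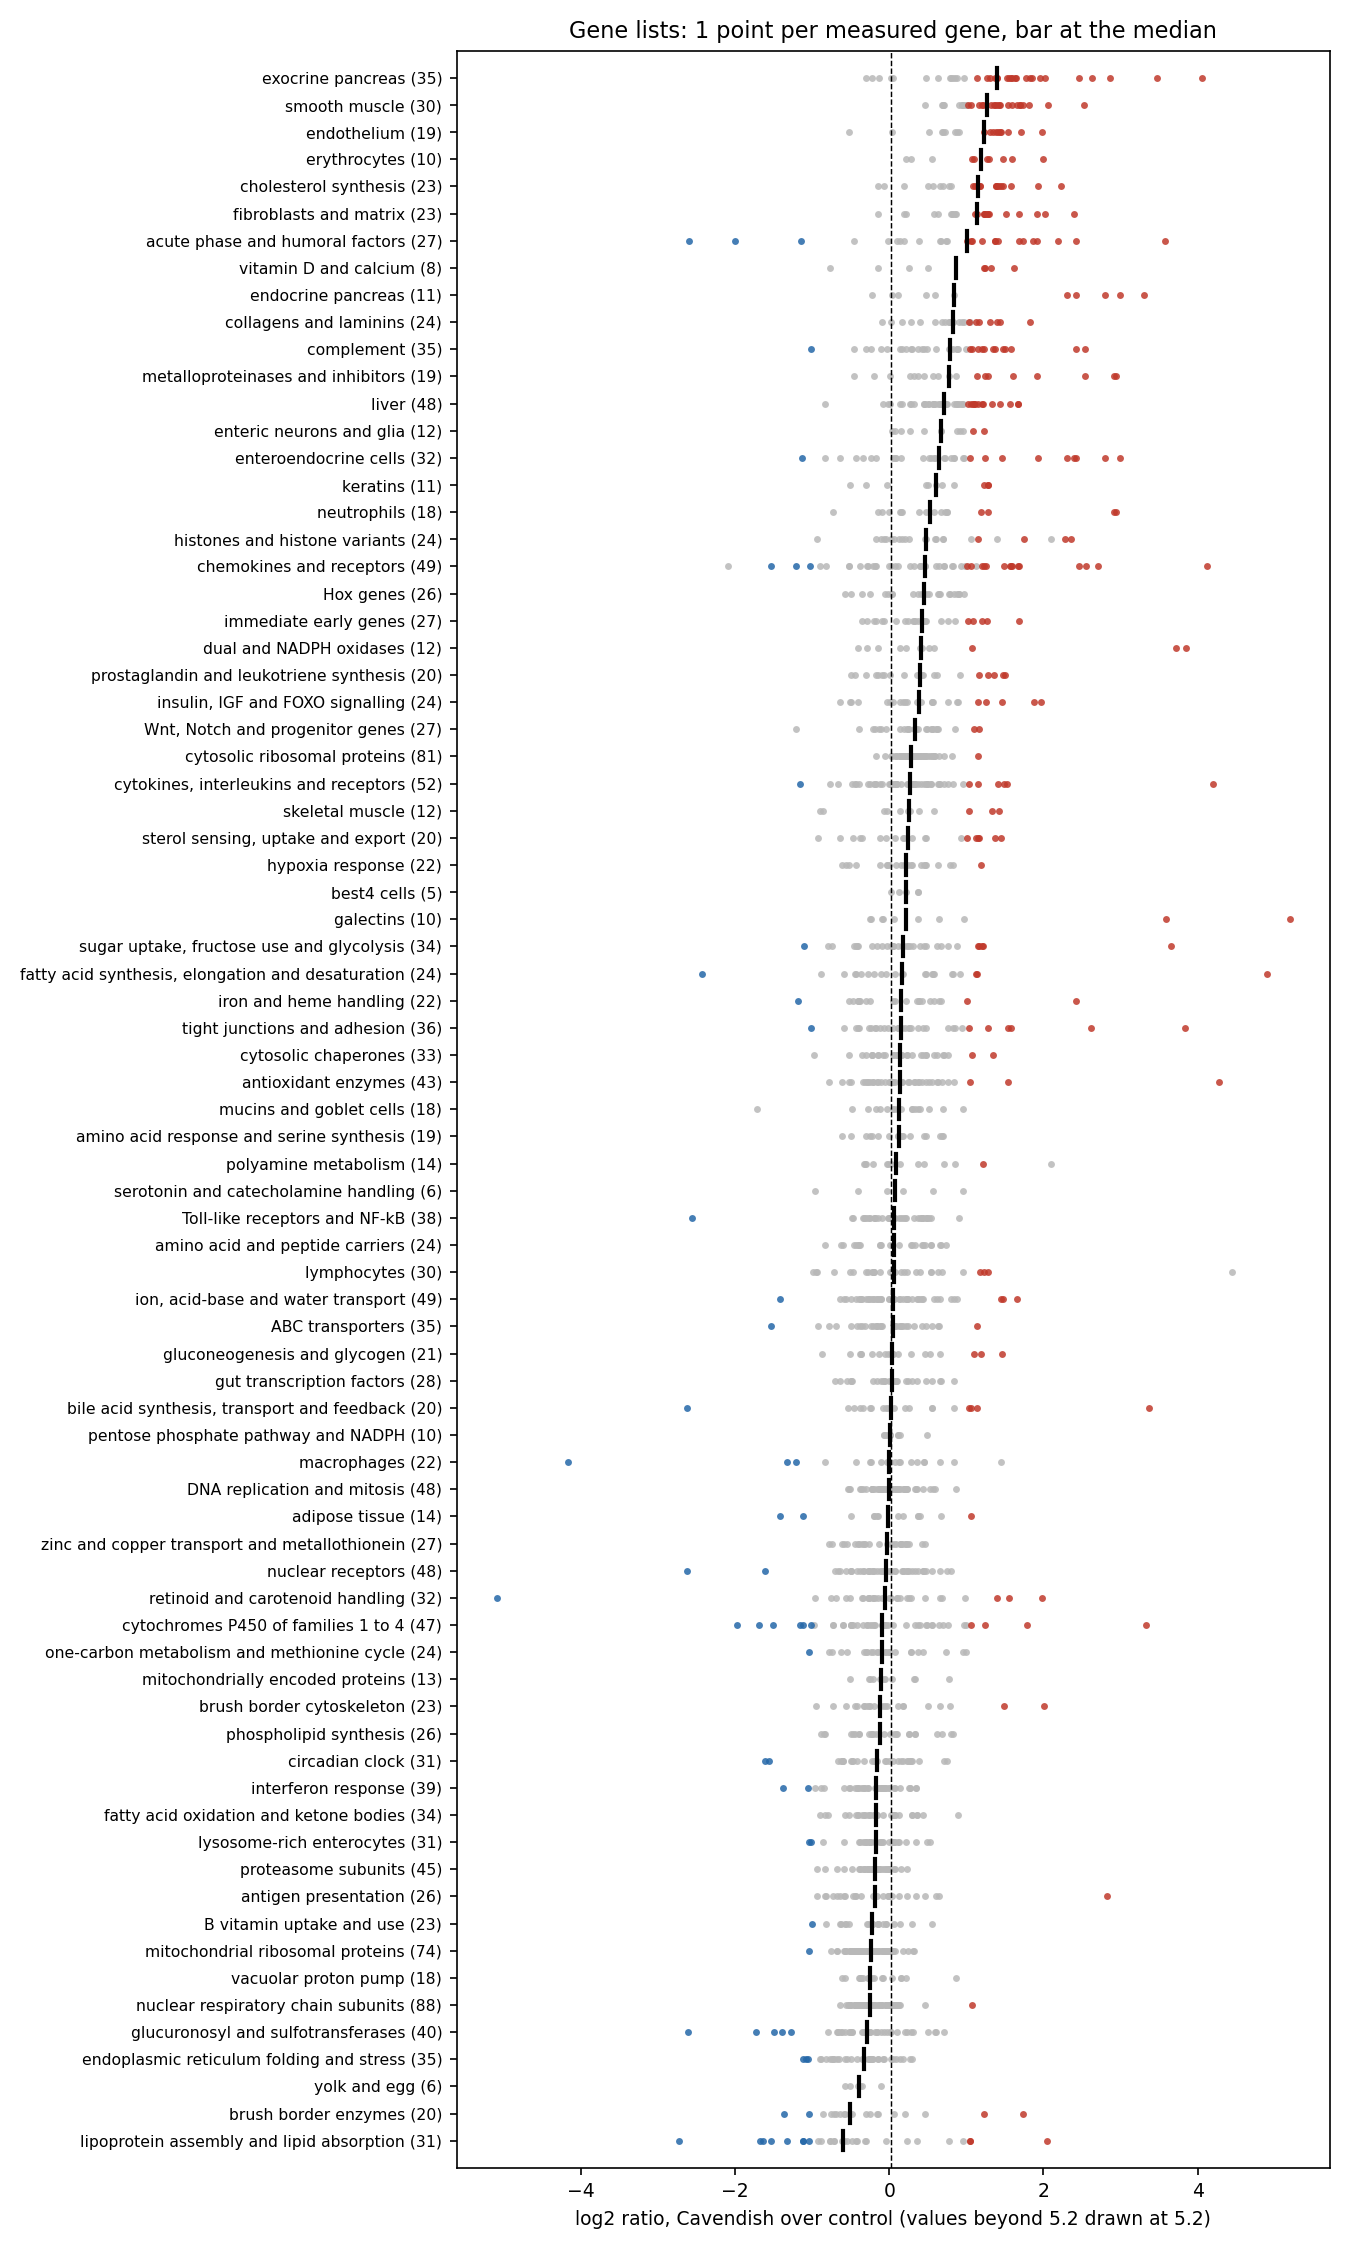
Each row is a gene list with its number of measured genes, each point a gene placed by its log2 ratio of Cavendish over control, and each black bar the list's median; red points were called higher, blue lower and grey neither, and the dashed line is the median of all genes at 0.02. Exocrine pancreas, smooth muscle, endothelium, red cell, cholesterol, fibroblast and acute phase lists lie at the top with medians above 1, and lipoprotein assembly lies at the bottom with a median of -0.60.

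Many genes of cholesterol synthesis were higher. Of 23 measured genes 14 were called higher and 0 lower, and 21 had a ratio above 0 (median 1.15). With TPM 9 were called higher and 0 lower (median 0.89). The mevalonate steps opened the pathway. hmgcs1, which makes HMG-CoA, was at 252 ± 10 FPKM in the Cavendish, 128 ± 6.3 in the Fe'i and 92 ± 4.6 in the control library. hmgcra (ENSDARG00000052734, chromosome 5, 50972485 to 50992775 in GRCz11), which reduces HMG-CoA to mevalonate and limits the rate, was at 93.9 ± 4.3 FPKM in the Cavendish, 25.1 ± 1.7 in the Fe'i and 19.3 ± 1.3 in the control library. It had the highest ratio of the list (2.23, counting SE 0.06), while its paralog hmgcrb stood at 7.84 ± 0.67 (Cavendish) and 8.82 ± 0.76 (control) FPKM. Further on, the mevalonate decarboxylase mvda stood at 40.3 ± 2.8 (Cavendish) and 35.3 ± 2.9 (control) FPKM, and ggps1, which leads off to the prenyl groups of proteins and not to sterol, at 3.61 ± 0.43 (Cavendish) and 3.84 ± 0.48 (control). Before squalene, acat2, mvk and fdps were also not called, at ratios of 0.77, 0.56 and 0.80, and after it nsdhl, ebp and lbr were not. fdft1, squalene synthase, was at 17.8 ± 1.7 FPKM with Cavendish against 6.18 ± 1.1 with control feed. sqlea, squalene epoxidase, was at 56.1 ± 2.3 FPKM with Cavendish against 20.2 ± 1.5 with control feed, and lss, which closes the sterol rings, at 48.2 ± 2.8 FPKM with Cavendish against 21.1 ± 1.6 with control feed. dhcr7, a reductase near the end of the pathway, had a ratio of 1.09.

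**Figure D2:**
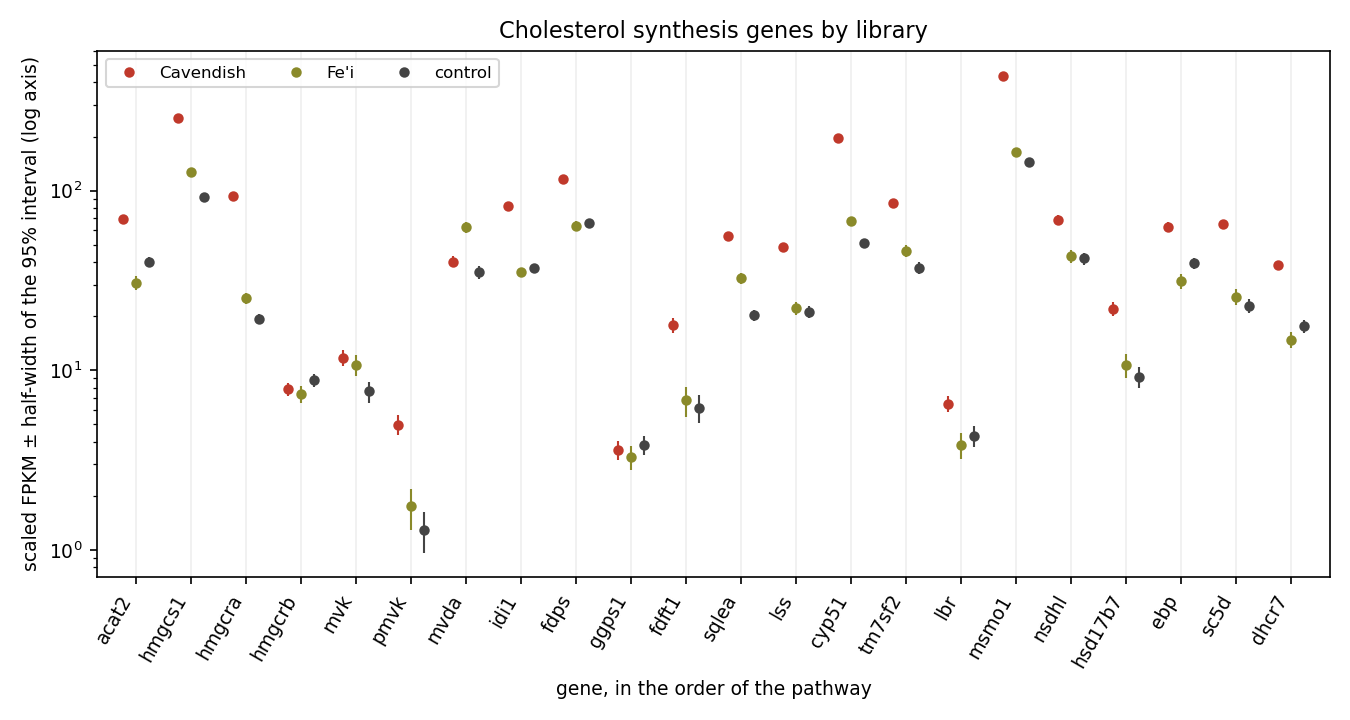
Levels of 22 cholesterol synthesis genes in pathway order (scaled FPKM, log axis), as 1 point per library with bars for the half-width of the deposited 95% interval; Cavendish is red, Fe'i olive and control grey. The Cavendish point lies above the control point for all genes drawn except hmgcrb and ggps1, with the widest gap at hmgcra (93.9 against 19.3).

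The genes that sense and take up sterol moved with the pathway in part. srebf2 itself was at 31.5 ± 1.2 FPKM in the Cavendish library and 10.9 ± 0.74 in the control library. insig1, which holds the Srebf2 complex back in the endoplasmic reticulum, was at 55.4 ± 3.0 FPKM with Cavendish against 24.2 ± 1.6 with control feed and is itself a target of the factor. Of the receptors for low-density lipoprotein, ldlrb was called higher at 31.4 ± 2.0 (Cavendish) and 13.9 ± 1.3 (control) FPKM, and ldlra lay just under the threshold at 12.9 ± 0.89 (Cavendish) and 6.3 ± 0.60 (control). The paired sterol exporters of the brush border were not called: abcg5 stood at 22.1 ± 1.6 (Cavendish) and 42.7 ± 2.7 (control) FPKM and abcg8 at 17.8 ± 1.3 (Cavendish) and 23.1 ± 1.6 (control). Of the 20 genes of sensing, uptake and export, 6 were called higher and 0 lower (median 0.25), and with TPM 3 higher and 1 lower (median 0.02). Cholesterol is also lost as bile acid. cyp7a1, the liver enzyme that starts this conversion, was at 364 ± 6.1 FPKM in the Cavendish, 4.46 ± 0.84 in the Fe'i and 34.3 ± 2.0 in the control library, and the nuclear receptor nr0b2b, which represses it, at 0.664 ± 0.50 FPKM in the Cavendish, 0.293 ± 0.41 in the Fe'i and 9.22 ± 2.0 in the control library. The summed level of liver genes was higher as given above, and the part of liver RNA in the cyp7a1 level was not tested. slc51a, a part of the carrier that passes bile acids out of enterocytes, had a ratio of 1.03. fabp6, which binds them inside the cell, stood at 7457 ± 74 (Cavendish) and 10271 ± 92 (control) FPKM. The other nr0b2 gene of the list, nr0b2a, had a ratio of -0.37 and was not called. Of 20 genes of bile acid synthesis, transport and feedback 4 were called higher and 1 lower. Their median of 0.02 turned to -0.16 with TPM, where 1 higher and 1 lower were called.

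Part of the genes that pack dietary fat into lipoproteins were lower. Of 31 measured, 8 were called lower and 3 higher, and 24 had a ratio below 0 (median -0.60), and with TPM 12 were lower and 1 higher. The fatty acid carriers of the enterocyte were among them: fabp1b.1 was at 5615 ± 66 FPKM in the Cavendish library and 11555 ± 99.7 in the control library, and fabp2, given above, had a ratio of -1.11. Of the apolipoproteins, apoa4b.2 was at 2743 ± 80 FPKM in the Cavendish, 2522 ± 77 in the Fe'i and 7922 ± 224 in the control library, and its neighbour in the family apoa4a had the lowest ratio of the list (-2.73, counting SE 0.06). apoc2, the cofactor of lipoprotein lipase, was at 678 ± 32 FPKM with Cavendish against 1470.3 ± 65 with control feed. sar1b, the GTPase that lets the large lipid-filled particles leave the endoplasmic reticulum, was at 39.1 ± 2.0 FPKM with Cavendish against 99.2 ± 3.4 with control feed. Of the enzymes that join fatty acids into triglyceride, mogat2 and dgat1a were not called, with mogat2 at 84.7 ± 4.7 (Cavendish) and 129 ± 6.8 (control) FPKM and dgat1a at 70.4 ± 2.2 (Cavendish) and 94.1 ± 2.8 (control). mttp, which loads triglyceride onto apolipoprotein B, had a ratio of -0.88 and was not called. The 3 called higher were apobb.2 at 8.13 ± 0.51 (Cavendish) and 1.21 ± 0.19 (control) FPKM, mogat3a at 6.24 ± 1.4 (Cavendish) and 2.5 ± 0.93 (control) and apoa1b at 2724 ± 115 (Cavendish) and 1321 ± 57 (control). apoa1b is also made in liver, whose summed level was higher as given above, and the part of that tissue was not tested.

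Among the remaining lipid lists only fatty acid synthesis had calls at the scaling used here. With 7.57% of all genes called, few calls would fall in lists of this size. Of 26 phospholipid synthesis genes 0 were called (median -0.12), while 3 were called lower with TPM (median -0.37). agpat2, which makes phosphatidic acid, stood at 36.3 ± 1.4 (Cavendish) and 66.3 ± 2.1 (control) FPKM. None of 34 genes of fatty acid oxidation was called either (median -0.17), and 2 were lower with TPM (median -0.43). ehhadh of the peroxisome stood at 47.9 ± 1.9 (Cavendish) and 89.8 ± 2.9 (control). Of 24 genes of fatty acid synthesis, 3 were called higher and 1 lower. With TPM these were 1 higher and 2 lower, and their median of 0.17 turned to -0.04. thrsp, a regulator of lipogenesis, was at 35.9 ± 5.5 FPKM in the Cavendish, 28.4 ± 6.1 in the Fe'i and 0.236 ± 0.47 in the control library. The elongases elovl6 and elovl1b had ratios of 1.13 and 1.12. me1, which supplies NADPH for lipid synthesis, was called lower at 8.47 ± 1.0 (Cavendish) and 50.1 ± 3.2 (control) FPKM, while the NADPH enzymes of the pentose phosphate pathway were not called, in 10 genes with ratios between -0.07 and 0.50.

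Sugar and hormone genes held some of the larger differences. gck, glucokinase, was at 27 ± 1.8 FPKM in the Cavendish, 2.26 ± 0.61 in the Fe'i and 1.23 ± 0.36 in the control library. Elsewhere in glycolysis the hexokinase hk1, the phosphofructokinase pfkpa, the aldolase aldocb and the enolase eno1a were also called higher, with ratios of 1.21, 1.2, 1.17 and 1.15, and pfkla was called lower. In the list of 34 the median of 0.17 turned to -0.04 with TPM, where 2 higher and 3 lower were called. pygl, the phosphorylase that breaks down glycogen in liver, was at 19.7 ± 1.4 FPKM with Cavendish against 6.5 ± 0.79 with control feed. pck1, the gluconeogenic gate, stood at 258 ± 11 (Cavendish) and 473 ± 20 (control) FPKM and did not reach the threshold. In insulin and growth factor signalling 5 of 24 genes were called higher and 0 lower (median 0.38). igfbp1a, a binding protein of insulin-like growth factor that fasting is known to raise in fish, was at 79.7 ± 4.5 FPKM in the Cavendish, 43.6 ± 3.4 in the Fe'i and 19.6 ± 1.8 in the control library. eif4ebp3, a brake on translation, was at 114 ± 7.2 FPKM in the Cavendish, 65.8 ± 5.9 in the Fe'i and 30.4 ± 3.3 in the control library. igf1 itself was at 6.46 ± 1.1 FPKM with Cavendish against 1.71 ± 0.60 with control feed. The receptor insra and the adaptor irs2b stood at ratios of -0.03 and 0.00. Liver makes much of igf1 and igfbp1a, its summed level was higher as given above, and its part in these genes and in pygl was not tested.

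Insulin and the other hormones of the islet were higher by a wide margin. ins (ENSDARG00000035350, chromosome 5, 37854685 to 37857696) was at 2307 ± 105 FPKM in the Cavendish, 633 ± 38 in the Fe'i and 233 ± 18 in the control library. The somatostatins sst2 and sst1.1 were at 327 ± 20 (Cavendish) and 40 ± 5.7 (control) and 265 ± 10 (Cavendish) and 37.4 ± 4.2 (control) FPKM, and the glucagon genes gcga and gcgb were called higher, with gcgb at 139 ± 8.7 (Cavendish) and 25.6 ± 4.0 (control). Somatostatin and glucagon are also made by endocrine cells of the gut. The list of 32 enteroendocrine genes, which includes these 2 hormones, had 9 called higher (median 0.65), with 25 ratios above 0 and 7 below. fev, which is in this list and not in the islet list, was among those called higher, at 1.46. The peptides pyyb, ghrl and ccka, typical of the gut, were not called: pyyb stood at 133 ± 7.9 (Cavendish) and 207 ± 10 (control) FPKM, ghrl, ghrelin, at 15 ± 2.8 (Cavendish) and 27.6 ± 4.1 (control), and ccka, cholecystokinin, at 8.92 ± 1.8 (Cavendish) and 12.4 ± 2.2 (control). insl5a had a ratio of 0.07 and vipb one of 0.84. The opioid precursor penkb was the 1 gene of that list called lower, at 2.55 ± 0.66 FPKM in the Cavendish, 19.8 ± 2.3 in the Fe'i and 6.76 ± 1.1 in the control library. The islet transcription factor pdx1 had a ratio of 0.48, and mafba one of 0.04.

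Within the exocrine pancreas list the ratios were unequal. Trypsins, chymotrypsins and elastases, which cut protein in the gut lumen, made up much of all RNA measured: prss59.1 was at 32234 ± 99 FPKM in the Cavendish, 10869.7 ± 72 in the Fe'i and 10713 ± 61 in the control library, prss1 at 26953 ± 89 FPKM in the Cavendish, 8628 ± 63 in the Fe'i and 9155 ± 56 in the control library and ctrb1 at 18813 ± 779 FPKM in the Cavendish, 6295 ± 264 in the Fe'i and 7109 ± 297 in the control library. Their ratios lay close together, at 1.59, 1.56 and 1.4. amy2a, amylase, stood higher, at a ratio of 2.46, and a CELA1 elastase on chromosome 22 higher still, at 2312 ± 25 FPKM in the Cavendish, 480.4 ± 14 in the Fe'i and 138 ± 6.5 in the control library. At the other end the secretory proteins cuzd1.1 and cuzd1.2 had ratios of 0.05 and -0.30, and ptf1a, the transcription factor of acinar cells, one of -0.14. Members of these families are close copies and may share reads, so the split between them is uncertain. The 10 most abundant genes held 22.6% of all FPKM in the Cavendish and 17.2% in the control library.

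Retinoid, vitamin and mineral genes gave a few large differences. cyp26a1 (ENSDARG00000033999, chromosome 12, 8954761 to 8958353), which clears retinoic acid and is induced by it, was at 1.2 ± 0.40 FPKM in the Cavendish, 2.65 ± 0.74 in the Fe'i and 74 ± 4.4 in the control library. Its ratio was -5.09, counting SE 0.14, the lowest of any gene with a gene name that was called. Of the 32 retinoid and carotenoid genes, cyp26a1 included (median -0.05), rbp5, rdh12 and rbp2b were called higher, and aldh1a2, which makes retinoic acid, stood at 24.8 ± 1.6 (Cavendish) and 49.6 ± 2.8 (control) FPKM. Among 8 vitamin D and calcium genes 4 were called higher: cyp2r1 and cyp27b1, which activate the vitamin, at 3.92 ± 0.70 (Cavendish) and 1.08 ± 0.54 (control) and 2.83 ± 0.51 (Cavendish) and 0.538 ± 0.24 (control) FPKM, cyp24a1, which inactivates it, at 7.18 ± 0.83 (Cavendish) and 2.48 ± 0.53 (control), and s100a10b at 311 ± 15 (Cavendish) and 101 ± 7.5 (control). Of 22 iron and heme genes 2 were called higher and 1 lower, and their median of 0.15 turned to -0.10 with TPM. steap4, a metalloreductase, was at 18.1 ± 0.93 FPKM in the Cavendish, 5.16 ± 0.62 in the Fe'i and 2.58 ± 0.38 in the control library. The hormone hamp, hepcidin, was at 9.11 ± 2.1 FPKM with Cavendish against 4.03 ± 1.5 with control feed. The 1 called lower was zgc:198419, at a ratio of -1.18. Zinc and copper genes (27 measured), amino acid carriers (24) and proton pump subunits (18) had 0 calls, and with TPM 1, 1 and 0 called lower. The water channels split, with aqp8a.1 at 83.6 ± 4.4 (Cavendish) and 29.5 ± 2.8 (control) FPKM and aqp3a at 5.45 ± 0.80 (Cavendish) and 1.05 ± 0.37 (control), both called higher, and aqp10a at 16.4 ± 1.5 (Cavendish) and 45.4 ± 2.7 (control), called lower. sat1a.2, which marks polyamines for export, stood at 10108 ± 12046 (Cavendish) and 2349 ± 5513 (control) FPKM, and its overlapping intervals kept it uncalled.

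The absorptive face of the epithelium was lower in part. Brush border enzymes had a median of -0.50, with 15 of 20 ratios below 0, 2 genes called lower and 2 called higher, against 4 lower and 2 higher with TPM. The highest ratio of the list was 1.73, and the 2 genes called higher were below 5 FPKM in both libraries. Those called lower were alpi.2, the intestinal alkaline phosphatase, at 58.5 ± 3.2 FPKM in the Cavendish, 177 ± 8.5 in the Fe'i and 153 ± 7.1 in the control library, and lct, lactase, at 9.64 ± 0.69 FPKM in the Cavendish, 10.9 ± 0.87 in the Fe'i and 20.9 ± 1.2 in the control library. The peptidases dpp4 and enpep stood at 53.6 ± 2.8 (Cavendish) and 97.6 ± 4.8 (control) and 152 ± 3.1 (Cavendish) and 238 ± 4.2 (control) FPKM. pls1 and ush1c, of the microvillus core and the links between microvilli, had ratios of -0.95 and -0.73, under the threshold. Of 23 brush border cytoskeleton genes, these included, 2 were called higher and 0 lower, and with TPM 2 higher and 1 lower. Their ratios were above 0 in 8 and below in 15 (median -0.11), and myo1ca was among those called higher, at 1.49. Among genes of lysosome-rich enterocytes, which take in whole protein, 2 of 31 were called lower. The endocytic dab2 was at 42.6 ± 2.4 FPKM in the Cavendish, 214 ± 8.2 in the Fe'i and 88.5 ± 4.0 in the control library. The other, lrp2b, was at 7.25 ± 0.50 FPKM in the Cavendish, 36.4 ± 1.8 in the Fe'i and 15.7 ± 0.90 in the control library. Mucin and goblet cell genes had 0 calls in 18, with muc13b at 669 ± 7.8 (Cavendish) and 756 ± 8.9 (control) FPKM and agr2 at 374 ± 18 (Cavendish) and 304 ± 15 (control). muc2.1 is not among the gene symbols used here. Of 48 replication and mitosis genes 0 were called (median 0.00, and -0.21 with TPM), and pcna stood at 119 ± 4.2 (Cavendish) and 125 ± 4.6 (control). Gut transcription factors had 0 calls in 28 genes, and Hox genes, which mark position along the gut, 0 calls in 26 (median 0.45). With 7.57% of all genes called, few calls would fall in lists of this size. Of the 26 Hox ratios 20 were above 0, and the list summed to 83.1 FPKM with Cavendish and 55.2 with control feed. Whether the 2 libraries hold the same stretch of gut was not tested.

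A few junction and keratin genes were higher. cldn18, a claudin of tight junctions, was at 13.2 ± 1.7 FPKM in the Cavendish library and listed at 0 in the Fe'i and control libraries. cldnb was at 24.2 ± 2.2 FPKM in the Cavendish, 4.43 ± 1.2 in the Fe'i and 3.11 ± 0.86 in the control library, and the adhesion protein epcam at 29.7 ± 2.5 FPKM in the Cavendish, 14.3 ± 2.1 in the Fe'i and 9.24 ± 1.4 in the control library. cldn15b, a claudin of absorptive epithelium, was the 1 called lower of 36 genes, at 14 ± 1.5 (Cavendish) and 29.4 ± 2.3 (control) FPKM, against 6 called higher. The list's median of 0.15 turned to -0.08 with TPM. Of 11 keratins 3 were called higher and 0 lower. These were krt18, krt15 and krt94, with krt18 at 462 ± 20 FPKM with Cavendish against 189.8 ± 10 with control feed, and krt8, krt4 and krt92 had ratios of 0.69, 0.61 and 0.50.

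Muscle, vessel and matrix genes of the gut wall were higher together. All 30 measured smooth muscle genes had a ratio above 0, from 0.47 to 2.53, with a median of 1.26 (1.08 with TPM). desmb, desmin, was at 81.7 ± 4.8 FPKM in the Cavendish, 18.8 ± 3.0 in the Fe'i and 13.3 ± 2.2 in the control library. tagln, which binds actin in smooth muscle, was at 534 ± 20 FPKM in the Cavendish, 218 ± 12 in the Fe'i and 169 ± 9.5 in the control library, and the smooth muscle actin acta2 at 521 ± 19 FPKM in the Cavendish, 210.5 ± 10 in the Fe'i and 160.3 ± 7.6 in the control library. foxf1, a transcription factor of gut mesenchyme, was at 7.44 ± 1.1 FPKM with Cavendish against 1.4 ± 0.50 with control feed. Vessels showed the same side: the endothelial plvapa was at 40.9 ± 1.8 FPKM in the Cavendish, 16.7 ± 1.5 in the Fe'i and 9.58 ± 0.95 in the control library, and the growth factor receptors kdrl and flt1 at 6.14 ± 0.44 (Cavendish) and 1.64 ± 0.25 (control) and 3.91 ± 0.53 (Cavendish) and 0.843 ± 0.26 (control) FPKM. Of 23 fibroblast and matrix genes 13 were called higher and 0 lower (median 1.14). thbs1a, thrombospondin, was at 5.42 ± 0.53 FPKM in the Cavendish, 0.438 ± 0.17 in the Fe'i and 0.217 ± 0.11 in the control library, and dcn, decorin, at 13.7 ± 1.3 FPKM in the Cavendish, 3.04 ± 0.68 in the Fe'i and 2.62 ± 0.56 in the control library. Of the collagens, col6a1 was at 21 ± 0.82 FPKM with Cavendish against 5.2 ± 0.45 with control feed, while col1a1a stood at 13.1 ± 1.5 (Cavendish) and 6.32 ± 1.2 (control) FPKM and was not called. Red cell genes followed, with hbaa1 at 133 ± 7.8 FPKM in the Cavendish, 227 ± 13 in the Fe'i and 53.7 ± 5.3 in the control library.

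Several innate defence genes had ratios near the top of all genes called. lgals9l6 (ENSDARG00000093059, chromosome 15, 30987414 to 31000275), a galectin that binds sugars, was at 278 ± 14 FPKM with Cavendish, at 0.568 with Fe'i and listed at 0 with control feed. Its relative lgals9l4 was at 11.1 ± 1.6 FPKM with Cavendish and also listed at 0 with control feed, whereas the abundant lgals2b stood at 7977 ± 336 (Cavendish) and 8549 ± 361 (control). duox, a dual oxidase that releases hydrogen peroxide at the gut surface, was at 24.2 ± 1.5 FPKM in the Cavendish, 0.87 ± 0.30 in the Fe'i and 0.922 ± 0.27 in the control library. A further dual oxidase gene, duox2, was at 21.3 ± 1.4 FPKM in the Cavendish, 0.176 ± 0.16 in the Fe'i and 0.548 ± 0.24 in the control library. The phagocyte oxidase was not called, with cybb at 7.64 ± 0.97 (Cavendish) and 5.43 ± 0.72 (control) FPKM and ncf1 at 56.6 ± 2.3 (Cavendish) and 62.6 ± 2.6 (control). il13, a cytokine of type 2 immunity, was at 29 ± 2.8 FPKM in the Cavendish, 4.21 ± 1.3 in the Fe'i and 0.64 ± 0.45 in the control library. il1b stood at 11.5 ± 1.3 (Cavendish) and 5.43 ± 0.91 (control), just under the threshold. Over 52 cytokine genes 6 were called higher and 1 lower.

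Chemokine genes were called both ways. Of 49 chemokine and receptor genes 15 were called higher and 3 lower (median 0.46), and with TPM 12 higher and 5 lower. Among the CXC chemokines cxcl11.8 was at 23.2 ± 2.8 FPKM in the Cavendish, 0.656 ± 0.59 in the Fe'i and 0.389 ± 0.39 in the control library, cxcl18b at 40.7 ± 2.9 FPKM in the Cavendish, 12.3 ± 2.0 in the Fe'i and 5.41 ± 1.2 in the control library and cxcl8b.1, which draws neutrophils, at 231 ± 9.5 FPKM in the Cavendish, 32.8 ± 4.5 in the Fe'i and 38.5 ± 4.2 in the control library. Of the CC family ccl34b.4 was at 57.9 ± 4.9 FPKM with Cavendish against 9.68 ± 2.1 with control feed and ccl25b, which guides lymphocytes to the gut, at 69.2 ± 5.6 FPKM with Cavendish against 24.1 ± 3.2 with control feed. ccl19b, one of the most abundant, stood at 505 ± 14 (Cavendish) and 725 ± 18 (control) FPKM, and ccl19a.2 was called lower at 6.49 ± 2.9 (Cavendish) and 14.3 ± 3.7 (control). The receptor cxcr4a had a ratio of 1.23 and cxcr4b one of -0.28.

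**Figure D3:**
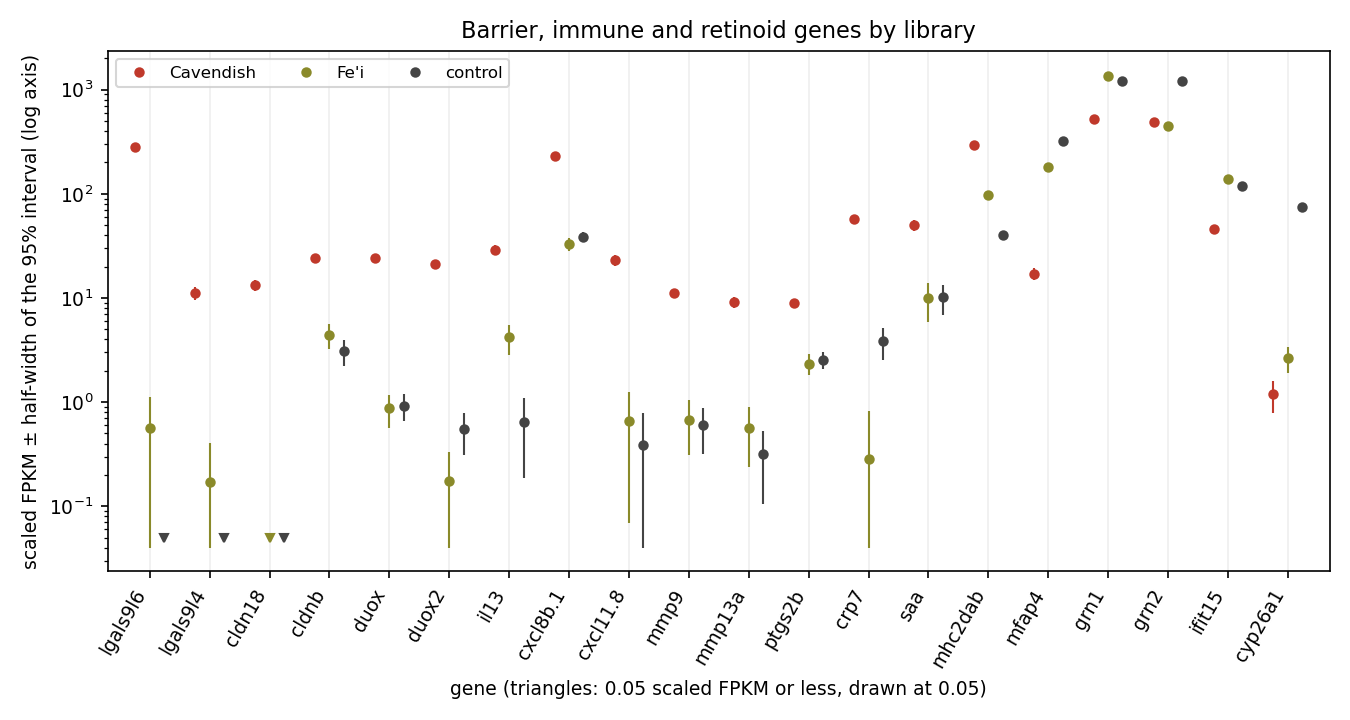
Levels of 20 barrier, immune and retinoid genes (scaled FPKM, log axis), as 1 point per library with bars for the half-width of the deposited 95% interval, cut at the foot of the axis; Cavendish is red, Fe'i olive and control grey, and triangles are libraries at 0.05 FPKM or less. From lgals9l6 to mhc2dab the Cavendish point lies above both others, and from mfap4 to cyp26a1 it lies below the control point (1.2 against 74.0 FPKM for cyp26a1).

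Some proteases and mediators of inflammation were higher. mmp9, a gelatinase, was at 11.1 ± 1.0 FPKM in the Cavendish, 0.675 ± 0.36 in the Fe'i and 0.601 ± 0.28 in the control library, and the collagenase mmp13a on the same side at 9.14 ± 1.1 FPKM in the Cavendish, 0.571 ± 0.33 in the Fe'i and 0.318 ± 0.21 in the control library. Their inhibitor timp4.2 was at 11.3 ± 1.7 FPKM in the Cavendish, 1.91 ± 0.88 in the Fe'i and 1.12 ± 0.58 in the control library. Of 19 metalloproteinases and inhibitors 8 were called higher and 0 lower. Both inducible cyclooxygenases were called higher, ptgs2b at 8.92 ± 0.83 (Cavendish) and 2.56 ± 0.47 (control) FPKM and ptgs2a at 2.91 ± 0.58 (Cavendish) and 0.378 ± 0.32 (control), as was ptges, the synthase of prostaglandin E2, at 4.12 ± 1.0 (Cavendish) and 1.1 ± 0.55 (control). Of 20 prostaglandin and leukotriene genes 5 were called higher and 0 lower. Their median of 0.39 turned to -0.033 with a minimum of 5 FPKM. The leukotriene enzymes ltc4s and lta4h had ratios of 0.01 and -0.30. Neutrophil marker genes counted 4 called higher and 0 lower of 18, and the higher ones were mmp9, scpp8 and both genes named mmp13a. Of the 18 ratios 14 were above 0 and 4 below (median 0.53, and 0.28 with TPM). Uncalled among those above 0 were lect2l, padi2 and srgn, at 0.75, 0.72 and 0.67. mpx, the myeloperoxidase of neutrophil granules, stood at 21.8 ± 1.3 (Cavendish) and 23.3 ± 1.4 (control) FPKM, and lyz, lysozyme, at 29.3 ± 4.1 (Cavendish) and 17.1 ± 3.3 (control). Toll-like receptor and NF-kB genes had 0 called higher and 1 lower in 38. Of 27 immediate early genes 5 were called higher and 0 lower (median 0.43), and 2 higher with TPM (median 0.18). The called genes included socs3a, a brake on cytokine signalling, at 60.7 ± 2.5 FPKM with Cavendish against 25.7 ± 1.8 with control feed.

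Of 27 acute phase genes 14 were called higher and 3 lower (median 1.01), and of 35 complement genes 12 higher and 1 lower (median 0.79), the lower one being cfhl1. The 14 include timp2b, a metalloproteinase inhibitor that is also in the matrix list, at a ratio of 1.91. crp7, a C-reactive protein, was at 56.7 ± 5.2 FPKM in the Cavendish, 0.287 ± 0.54 in the Fe'i and 3.83 ± 1.3 in the control library, and saa, serum amyloid A, at 49.8 ± 5.7 FPKM in the Cavendish, 9.88 ± 4.0 in the Fe'i and 10.1 ± 3.3 in the control library. The haptoglobin gene hp on chromosome 7 was at 32.2 ± 2.3 FPKM in the Cavendish, 0.497 ± 0.60 in the Fe'i and 5.19 ± 0.97 in the control library. Terminal complement genes c6 and c7b lie side by side on chromosome 21, where c7b was at 6.61 ± 0.76 FPKM with Cavendish against 0.307 ± 0.18 with control feed. c3a.1, of the central C3 component, was at 212 ± 2.8 FPKM in the Cavendish, 266 ± 3.9 in the Fe'i and 70 ± 1.7 in the control library. Plasma proteins of this kind are made in the liver, whose summed level was higher too as given above. Its clotting factors f2 and f10 had ratios of 1.02 and 1.16, and fabp10a, the fatty acid binding protein of liver, was at 3423 ± 61 FPKM in the Cavendish, 7829 ± 113 in the Fe'i and 1073 ± 35 in the control library. The part of liver RNA in these lists was not tested. Lectins of the intelectin family were called both ways. itln3 was called higher, at a ratio of 1.86, and the 2 genes named itln2 on chromosome 7 were called lower. The first itln2 gene was at 29.1 ± 2.8 FPKM in the Cavendish, 178 ± 9.6 in the Fe'i and 119 ± 6.8 in the control library. The second was at 28.5 ± 2.2 FPKM in the Cavendish, 107 ± 5.3 in the Fe'i and 178 ± 5.8 in the control library. leap2, an antimicrobial peptide, was called lower at 8.18 ± 0.72 (Cavendish) and 19.3 ± 1.2 (control).

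Several macrophage and interferon genes were lower. mfap4 (ENSDARG00000090783, chromosome 1, 59090583 to 59092056), widely used as a macrophage marker in zebrafish, was at 17.2 ± 2.4 FPKM in the Cavendish, 179 ± 11 in the Fe'i and 324 ± 17 in the control library. The granulins grn1 and grn2, secreted growth factors, were at 519 ± 23 FPKM in the Cavendish, 1343 ± 56 in the Fe'i and 1205 ± 48 in the control library and at 484 ± 24 FPKM in the Cavendish, 443 ± 25 in the Fe'i and 1210.0 ± 53 in the control library. These were the 3 macrophage genes called lower of 22, with 0 called higher and a median of 0.00 (-0.25 with TPM). Of the 22 ratios 12 were above 0 and 10 below, and the highest was that of ms4a17a.10, at 1.45 and uncalled. Of 39 interferon response genes 31 had a ratio below 0 and 2 were called lower (median -0.17), 5 with TPM. They were ifit15 at 45.6 ± 2.2 FPKM in the Cavendish, 140.0 ± 4.9 in the Fe'i and 119.7 ± 3.9 in the control library, and ifit14 at 24.8 ± 2.0 FPKM in the Cavendish, 103 ± 5.1 in the Fe'i and 52.3 ± 3.1 in the control library. rsad2, viperin, stood at 8.72 ± 1.1 (Cavendish) and 16.5 ± 1.6 (control) FPKM. Antigen presentation genes had a median of -0.19, and mhc2dab, a class II gene, was the 1 called, at 292 ± 6.7 FPKM in the Cavendish, 97 ± 4.8 in the Fe'i and 40.3 ± 2.7 in the control library, with 3 called lower under TPM. cd79a, of the B cell receptor, stood at 5.91 ± 1.6 (Cavendish) and 12.7 ± 2.5 (control) FPKM, uncalled. Segments of antibody genes were called both ways, with the igl3v2 of ENSDARG00000093855 at 2.0 ± 2.0 (Cavendish) and 97.1 ± 14 (control) FPKM and ighv9-1 at 37.3 ± 9.1 (Cavendish) and 1.13 ± 1.6 (control). A second gene named igl3v2 on chromosome 24 had a ratio of -0.07.

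Several conjugating enzymes, which make drugs and hormones soluble, were lower. Of 40 glucuronosyl and sulfotransferases 5 were called lower and 0 higher (median -0.28). sult3st3 was at 13.8 ± 1.8 FPKM in the Cavendish, 33.6 ± 3.4 in the Fe'i and 89.3 ± 4.7 in the control library and ugt5b3 at 4.25 ± 0.70 FPKM with Cavendish against 16.3 ± 1.5 with control feed. The cytochromes P450 of families 1 to 4 went both ways, with 6 called lower and 4 higher of 47. cyp2k6 was at 64.4 ± 3.6 FPKM in the Cavendish, 3.67 ± 0.81 in the Fe'i and 5.51 ± 0.87 in the control library and cyp2k22 at 16.1 ± 1.6 FPKM with Cavendish against 66.1 ± 4.1 with control feed. cyp1a, which dioxin-like ligands induce, stood at 35.8 ± 2.2 (Cavendish) and 26.6 ± 1.9 (control) FPKM. Of 43 antioxidant genes 3 were called higher, a share near the 5.86% of all genes. Among them gstp2, a glutathione transferase, was at 24.8 ± 2.7 FPKM in the Cavendish, 50.8 ± 4.8 in the Fe'i and 0.33 ± 0.33 in the control library. gpx1b, a glutathione peroxidase, was at 2185 ± 25 FPKM in the Cavendish, 687 ± 18 in the Fe'i and 1056 ± 19 in the control library.

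Genes of the cell's general machinery moved by small amounts. Of 81 cytosolic ribosomal proteins 79 had a ratio above 0, at a median of 0.29 and 0.02 with TPM, against the all-gene medians of 0.02 and -0.20. rpl36 was the 1 called, at 1841 ± 81 FPKM with Cavendish against 830.2 ± 39 with control feed. Mitochondrial ribosomal proteins lay on the other side, with 66 of 74 ratios below 0 (median -0.24), as did proteasome subunits (41 of 45, median -0.19) and nuclear respiratory chain subunits (72 of 88, median -0.25). Between these 3 lists 1 gene was called lower, mrpl33, and 1 higher, cox4i2. With TPM 2 mitochondrial ribosomal and 2 proteasome genes were called lower. Protein folding in the endoplasmic reticulum had 3 of 35 genes called lower and 28 below 0 (median -0.33), and with TPM 8 were called lower (median -0.58). Its chief chaperone hspa5 was at 101 ± 2.9 FPKM in the Cavendish, 301 ± 6.4 in the Fe'i and 210.2 ± 4.6 in the control library, pdia6 at 41.7 ± 2.7 FPKM with Cavendish against 91.6 ± 5.0 with control feed and manf at 30.7 ± 2.0 FPKM with Cavendish against 65.9 ± 3.1 with control feed. hsp90b1, in the same compartment, stood at 104 ± 2.7 (Cavendish) and 193 ± 4.0 (control) FPKM. In the circadian clock 2 of 31 genes were called lower, the repressor nr1d1 at 1.55 ± 0.32 FPKM in the Cavendish, 2.3 ± 0.49 in the Fe'i and 6.8 ± 0.72 in the control library and ciarta at 1.76 ± 0.36 FPKM in the Cavendish, 3.08 ± 0.59 in the Fe'i and 7.17 ± 0.79 in the control library. The labels give no hour of sampling. per1a reached 1 FPKM in neither library.

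Called genes also lay side by side. Runs of at least 3 neighbouring measured genes, all called in 1 direction, numbered 22 and held 75 genes, 7.3% of all those called. Of the runs 18 were higher and 4 lower. The longest, of 7 genes, spanned chromosome 14 from 15257658 to 15625472 and held si:dkey-77g12.4 and 6 genes of the si:dkey-203a12 series, which have no gene name. si:dkey-203a12.8 was at 285 ± 19 FPKM in the Cavendish, 24.1 ± 6.6 in the Fe'i and 5.03 ± 2.6 in the control library. si:dkey-203a12.7 was at 77.3 ± 7.3 FPKM in the Cavendish, 5.5 ± 2.4 in the Fe'i and 0.774 ± 0.77 in the control library, and si:dkey-203a12.6 at 191 ± 20 FPKM in the Cavendish, 13.3 ± 5.0 in the Fe'i and 13.5 ± 4.4 in the control library. A run of 6 on chromosome 3 was the globin cluster, where the Fe'i levels were higher still, with hbba2 at 14.3 ± 2.6 FPKM in the Cavendish, 22.6 ± 4.0 in the Fe'i and 2.85 ± 1.2 in the control library. Elastase copies made a run of 4 on chromosome 22. On chromosome 10, 4 genes around the collagen-binding integrins itga1 and itga2.3 formed another, with itga2.3 at 22.5 ± 2.2 FPKM in the Cavendish, 4.75 ± 1.3 in the Fe'i and 4.02 ± 0.99 in the control library. rpz2, of the rapunzel genes on chromosome 16, was at 395 ± 18 FPKM in the Cavendish, 45.1 ± 4.3 in the Fe'i and 36.5 ± 3.4 in the control library, with its neighbours rpz and rpz5 also called higher. The lower runs included the P450 genes cyp2p8, cyp2p9 and cyp2p10 on chromosome 20, at ratios of -1.51, -1.12 and -1.16, and a run on chromosome 22 with sult3st3 and sult3st2. Copies within a run may share reads, and 8 neighbouring pairs in the runs overlapped in position. The library kit does not mark strand, so reads of overlapping genes cannot be told apart. By chromosome the share called higher ranged from 2.77% to 9.36% and the share called lower from 0.60% to 4.68%, the highest on chromosome 22.

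**Figure D4:**
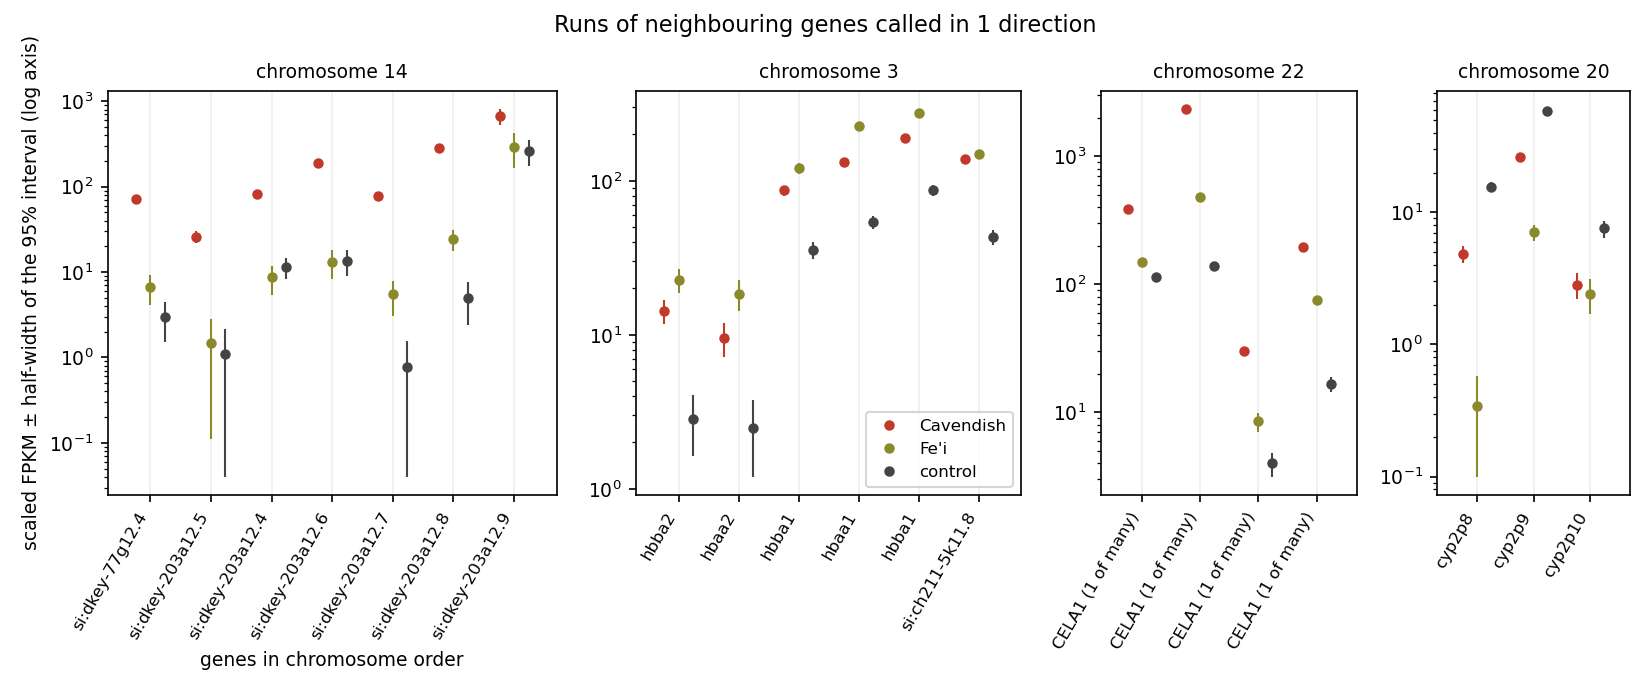
Levels in 4 runs of neighbouring genes (scaled FPKM, log axis), with genes in chromosome order and 1 point per library; bars are half-widths of the deposited 95% interval, cut at the foot of the axis, and Cavendish is red, Fe'i olive and control grey. Cavendish lies above control in the runs of chromosomes 14, 3 and 22 and below it in the cyp2p run of chromosome 20, and in the globin run of chromosome 3 Fe'i lies highest.

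Genes without a gene name made up 33.9% of the calls and 20.5% of measured genes. The lowest ratio of any called gene belonged to 1 of them (ENSDARG00000094183, chromosome 9, 33222911 to 33223829), at 0.298 FPKM in the Cavendish library, listed at 0 in the Fe'i library and at 172 in the control library. On the higher side si:ch1073-67j19.1 was at 179 ± 6.9 FPKM in the Cavendish, 3.24 ± 1.2 in the Fe'i and 3.1 ± 0.99 in the control library, and zgc:92590 at 149 ± 6.6 FPKM in the Cavendish, 1.7 ± 0.89 in the Fe'i and 2.86 ± 0.99 in the control library. si:ch211-66i15.5 reached 513 ± 24 FPKM in the Cavendish, 13 ± 2.6 in the Fe'i and 18.8 ± 2.7 in the control library. These 4 were picked for their ratios after the values were seen. Across all called genes, 43 of those higher were listed at 0 in the control library and 13 of those lower at 0 in the Cavendish library.

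Named genes with the lowest ratios came from varied pathways. pvalb9, a calcium-binding parvalbumin, was at 16.7 ± 2.5 FPKM in the Cavendish, 9.55 ± 2.3 in the Fe'i and 103 ± 7.6 in the control library. gatm, which makes the precursor of creatine, was at 8.35 ± 1.3 FPKM in the Cavendish, 30.5 ± 3.4 in the Fe'i and 44 ± 3.7 in the control library, and cmah, which modifies sialic acid, at 10 ± 1.1 FPKM in the Cavendish, 10.2 ± 1.3 in the Fe'i and 40.1 ± 2.7 in the control library. The type IV antifreeze protein gene afp4 (ENSDARG00000095863, chromosome 16) was at 1967 ± 87 FPKM in the Cavendish, 2355 ± 106 in the Fe'i and 7962 ± 335 in the control library. The brain-type fatty acid binding protein fabp7a was at 30.6 ± 3.7 FPKM in the Cavendish, 302 ± 18 in the Fe'i and 145 ± 10 in the control library, and the relaxin gene rln1 at 6.23 ± 1.9 FPKM in the Cavendish, 6.07 ± 2.3 in the Fe'i and 30.8 ± 4.5 in the control library. Both banana diets are set against the same control library. Among the highest ratios outside the lists were cst14b.2, a cystatin, at 66.1 ± 2.8 FPKM in the Cavendish, 2.68 ± 0.72 in the Fe'i and 6.11 ± 0.94 in the control library, and rnasel2, an RNase A relative, at 157 ± 6.3 FPKM in the Cavendish, 336 ± 11 in the Fe'i and 7.84 ± 1.5 in the control library.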

How the data were processed

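RNA of zebrafish intestine was sequenced as 1 poly(A) library a diet. Per the submitters' processing notes FastQC 0.11.5 served to check the reads and TopHat2 2.1.0 to place them on GRCz11; the deposited FPKM values, with their 95% intervals, are Cufflinks gene estimates per the file headers, of a version the sources used here do not give. FPKM carries no fragment counts, so no count test was possible. Rows of 1 identifier were summed, and rows without an accepted estimate were left out. Libraries were scaled by median ratios over genes that reached 1 FPKM in each of the 3 libraries, at factors of 0.969 (Cavendish), 0.965 (Fe'i) and 1.06 (control). Ratios used a pseudocount of 1. The half-width of an interval is 2 SD. Relative depth was estimated from the intervals of 1353 genes, and the intervals cover counting and read assignment within a library only. Close paralogs may share reads. Identifiers numbered 32510, of which 89.8% were in the gene name table.

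The genes compared and the gene lists were chosen with earlier results of these data known. The text names called genes at 5 FPKM or more (20 highest ratios, 20 lowest), up to 8 members of each list by size of ratio at that level, the 10 most abundant genes of a library, a fixed set of genes and members of runs; not every such gene is printed, and some genes of the lists are not reported here. Outside this rule, and chosen after their values were seen, are acat2, apoa1b, ccka, ccl19a.2, ccl19b, cfhl1, cuzd1.1, cuzd1.2, cxcr4a, cyp27b1, cyp2r1, dgat1a, dhcr7, ebp, f2, fdps, flt1, ggps1, ghrl, hmgcrb, insl5a, insra, irs2b, lbr, leap2, lss, ltc4s, mogat2, mogat3a, mpx, mttp, mvda, mvk, nsdhl, pdx1, pfkla, ptf1a, ptges, ptgs2a, pyyb, scpp8, si:ch1073-67j19.1, ENSDARG00000094183, si:ch211-66i15.5, vipb and zgc:92590. Promoters of the lists were not searched for motifs, since no sequence of this genome build was used here. Scripts ran in Python 3.11.15 with pandas 2.3.3, numpy 2.4.6 and matplotlib 3.10.9 and were tested on simulated data. The alternatives tried were other scalings, pseudocounts, minimum levels and thresholds, and genes outside the organ and gut wall lists.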

Additional observations from a re-analysis of the deposited data

How the results depend on the processing

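Of the 279 called genes that the naming rule takes, 109 lost their call under at least 1 alternative scaling, pseudocount or minimum. The other 170 kept it under every alternative in which they were measured, and none was reversed. With a minimum of 5 FPKM only 260 of the 279 were still measured, and a gene dropped there was not counted as lost. A minimum changes no ratio or interval, and a pseudocount of 0.1 only enlarges ratios, so neither could remove the call of a measured gene. Counts of genes called higher and lower moved by over 1.5 times with a pseudocount of 0.1 (1266 and 353), a pseudocount of 5 (280 and 95), a log2 threshold of 2 (128 and 43) and TPM (517 and 451). The count called higher also moved with a minimum of 5 FPKM (484), and the count called lower with TPM computed without pancreas and mitochondrial genes (351). The cause was not tested, apart from the fewer genes that pass a stricter limit. The signs of 54 of 77 list medians held under the 4 scalings. The prostaglandin and leukotriene median turned to -0.033 with a minimum of 5 FPKM. Exocrine pancreas genes took 15.8% of FPKM in the Cavendish and 6.9% in the control library. Leaving out a library was not possible. No paired analysis was possible because each diet has 1 library.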

Other observations

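Genes of protein entry into the endoplasmic reticulum and of transport between it and the Golgi were put together as a list after the values were seen. The counts of this list are a description and no support for a change of the group. Of 114 measured genes 14 were called lower and 1 higher, 99 had a ratio below 0 and the median was -0.43, beside 1.71% called lower and a median of 0.02 over all genes. With TPM, tried after the values were seen, 25 were called lower and 1 higher, at a median of -0.69 against -0.20 over all genes. Over all 13584 genes TPM gave 451 called lower and 517 called higher. The coat subunit copa, which shapes vesicles returning from the Golgi, was at a ratio of -1.01. sec31a, of the outer coat of vesicles leaving the endoplasmic reticulum, was at 2.15 ± 0.27 FPKM in the Cavendish library and 5.67 ± 0.51 in the control library, and sec61a1l, of the channel that takes new proteins in, at 20.9 ± 1.6 (Cavendish) and 42.9 ± 2.7 (control) FPKM. kdelr2b, the receptor that returns escaped chaperones, was at 67 ± 3.2 FPKM with Cavendish against 140.4 ± 4.9 with control feed. The 1 called higher was tmed6, at 25.9 ± 2.9 (Cavendish) and 9.78 ± 1.9 (control) FPKM.

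Enzymes of bile acid synthesis beyond cyp7a1, also picked after their values were seen, included cyp8b1, which sets the pattern of hydroxyl groups, at 51.3 ± 2.3 FPKM in the Cavendish, 12.1 ± 1.4 in the Fe'i and 18.6 ± 1.5 in the control library. cyp39a1, which acts on oxysterols, was at 25.6 ± 1.5 FPKM in the Cavendish, 3.79 ± 0.72 in the Fe'i and 3.69 ± 0.61 in the control library. Other synthesis enzymes, of the bile acid list, were not called, among them hsd3b7 at a ratio of 0.84. Also uncalled, and named after their values were seen, were cyp27a1.2, cyp27a1.4, cyp7b1, cyp46a1.1 and cyp27a7, at ratios of 0.56, 0.25, -0.01, -0.23 and -0.34. The part of liver RNA in these levels was not tested. csad, which makes hypotaurine on the way to taurine, was at 1.47 ± 0.40 FPKM in the Cavendish, 5.89 ± 1.0 in the Fe'i and 6.52 ± 0.96 in the control library.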
